A study of Rattus norvegicus with 8 samples.

Results

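The solute carrier (SLC) genes encode the largest group of membrane transporters, and they were compared here between hippocampi of adrenalectomized (ADX) rats given vehicle or corticosterone (CORT). Members were the symbols written as Slc, a family number, the letter a and a member number, without the mitochondrial carriers of the Slc25 family. With the row of highest level kept for each symbol, 193 of the 13272 gene symbols in the deposited RNAseq table were members, and they belonged to 45 families. Whole hippocampi of 8 ADX rats had been sequenced, 4 infused with vehicle (0.45% saline) and 4 with corticosterone-2-hydroxypropyl-beta-cyclodextrin at 0.75 mg/mL, each for 30 min from zeitgeber time (ZT) 2, the early inactive phase. All rats were male, had lost both adrenal glands, and had drunk a low dose of corticosterone in saline during recovery until it was replaced by saline alone before the infusion. The labels give Sprague-Dawley rats of 3 to 4 months and ZT 2, and their titles call the vehicle rats untreated, whereas the methods of the paper give a different strain (Lister Hooded), a younger age, and collection 2 h after the infusion began.

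SLC proteins move amino acids, sugars, ions, metals and transmitters across membranes, mostly as exchangers or as cotransporters driven by ion gradients. In the hippocampus, vesicular members load glutamate or GABA into synaptic vesicles, plasma membrane members of neurons and astrocytes clear these transmitters from the extracellular space, and others set the chloride, proton and calcium concentrations of neurons. Members in endothelium, choroid plexus and meninges carry nutrients into the brain and organic ions out of it.

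The table gives 1 FPKM value per group, in which the authors combined the 4 libraries. FPKM counts sequenced fragments per kilobase of transcript, after scaling between libraries, so levels can be compared between genes. No value for a single rat and no read total per library is given, so the values below carry no error, the depth behind them is unknown, and no difference was tested. A gene is called past the threshold when its CORT and vehicle values differed at least 1.5-fold and at least one of them reached 1 FPKM, and log2 ratios are CORT over vehicle without a pseudocount. Of the 193 members, 190 reached 1 FPKM in at least one group. The other 3, Slc37a2, Slc44a4 and Slc52a3, were below it in both groups and within the threshold.

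Few SLC genes differed by this much after CORT, and most of those that did were expressed at low levels. Past the 1.5-fold threshold, 3 members were higher with CORT, which is 1.58% of the 190, against 1.86% of the 12988 symbols that passed the same filter. The lower members numbered 11, which is 5.79%, against 3.66% of all symbols. The median log2 ratio was -0.0030 over the 190 members and 0.019 over all symbols, and the median of its size without sign was 0.13 and 0.11. In all, 94 members were higher and 96 lower with CORT, against 7087 higher and 5900 lower of all 12988 symbols. Of the members, 158 had a log2 ratio smaller than 0.32 in size. For comparison, the 35 mitochondrial carriers of the Slc25 family had a median log2 ratio of 0.019, with none higher and 1 lower past the threshold.

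The share past the threshold depended on level. Among all symbols with a mean of the 2 groups under 2 FPKM, 7.06% were higher and 16% lower past 1.5-fold, and 3 and 5 of the 25 members in this range were. Between 2 and 5 FPKM these shares were 1.72% and 6.57%, and 0 and 3 of 44 members were higher and lower. From 5 to 20 FPKM they were 1.15% and 1.63%, and 0 and 3 of 68 members. None of the 53 members at 20 FPKM or more was past the threshold in either direction, against 1.17% and 0.879% of all symbols at this level. Of the 14 members past the threshold, 7 reached 1 FPKM in one group only, and such genes could pass the filter only because of the group in which they were high. With 1 FPKM required in both groups, 1 member was higher and 6 were lower, out of 176. These are 0.568% and 3.41%, against 1.42% and 2.50% of the 12578 symbols that passed the same filter.

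**Figure D1:**
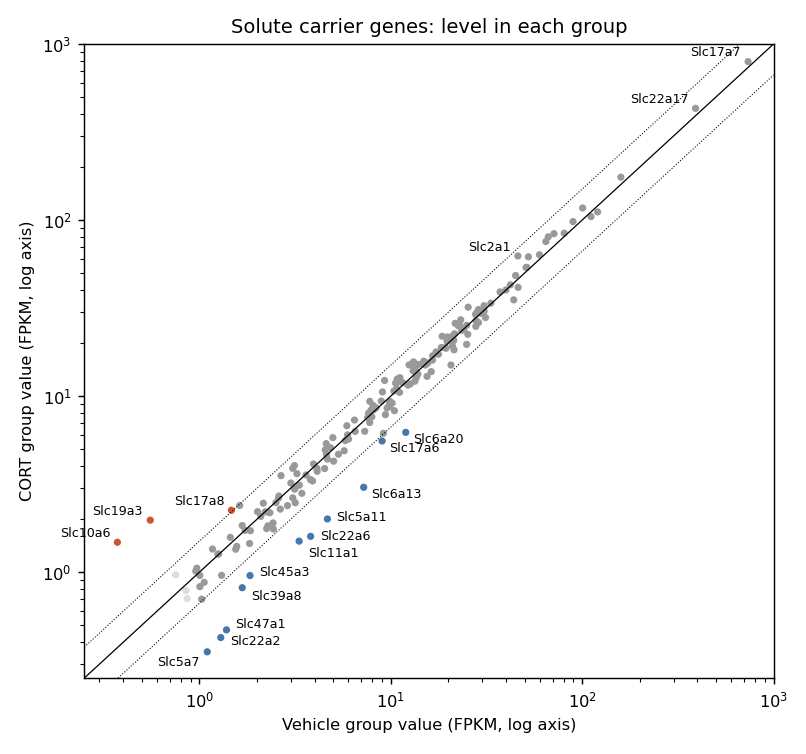
Level of each of the 193 SLC genes in the vehicle group (x axis) and the CORT group (y axis), in FPKM on log axes; each point is 1 gene, the solid line marks equal values and the dotted lines a 1.5-fold difference. The 3 genes past it towards CORT (red) and 8 of the 11 past it towards vehicle (blue) have a mean below 5 FPKM, dark grey genes lie between the lines, and the 3 pale grey genes are below 1 FPKM in both groups.

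Genes of glutamatergic neurons and astrocytes were prominent among the most abundant SLC genes, and none of the 10 at the top moved by more than 0.27 on the log2 scale. Slc17a7, the vesicular glutamate transporter VGLUT1, was highest at 736 FPKM after vehicle and 794 FPKM after CORT. It alone made up 17.4% and 18% of the FPKM summed over all members. Slc22a17, a receptor for lipocalin-2, followed with 391 and 431 FPKM. The astrocytic glutamate transporters Slc1a2 (GLT-1) and Slc1a3 (GLAST) had 159 and 175 FPKM and 111 and 105 FPKM. Slc48a1, a haem transporter, had 120 FPKM with vehicle and 111 FPKM with CORT. The level of Slc30a3, the zinc transporter of synaptic vesicles, was 89.6 and 98.0 FPKM. Slc3a2, the heavy chain shared by several amino acid exchangers, had 80.6 and 84.2 FPKM. The sodium-calcium exchanger gene Slc8a2 and the potassium-chloride cotransporter gene Slc12a5 (KCC2) were also among the first 10, at 71.2 and 83.6 FPKM and at 66.5 and 80.3 FPKM. The log2 ratio of 0.27 for Slc12a5 was the largest of these 10, and Slc48a1 and Slc1a3 were the members among them with a lower value in the CORT group. Each level is that of the highest row of its gene, and summed rows change the order. Slc1a3 then had 253 and 239 FPKM, above Slc1a2. The amino acid transporter gene Slc6a17, with 86.8 and 103 FPKM, was then above Slc12a5, with 67.2 and 81.6 FPKM.

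The highest ratios belonged to a steroid sulphate carrier and a vitamin carrier, both of low level. Slc10a6 encodes a sodium-dependent transporter of sulphated steroids (chromosome 14, 7581188 to 7682377 in rn6, as the table gives the locus). Its values were 0.372 FPKM after vehicle and 1.48 FPKM after CORT, a 3.97-fold difference and a log2 ratio of 1.99. Slc19a3, a thiamine transporter on chromosome 9 between 88764072 and 88816898, had 0.553 and 1.97 FPKM, a 3.57-fold difference. With a pseudocount of 1 FPKM the log2 ratios were 0.85 for Slc10a6 and 0.94 for Slc19a3, so their order turned. Both were below 1 FPKM in the vehicle group. The third member past the threshold was Slc17a8, the vesicular glutamate transporter VGLUT3, with 1.47 and 2.25 FPKM and a log2 ratio of 0.61. With a pseudocount of 1 FPKM its log2 ratio was 0.40, short of the threshold of 0.58.

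Slc2a1, which encodes the glucose transporter GLUT1 of brain endothelium and astrocytes (chromosome 5, 138154672 to 138182897), was the most abundant of the 10 members with the highest ratios. Its level was 46.1 FPKM after vehicle and 62.5 FPKM after CORT, a 1.36-fold difference that did not reach the threshold. The sodium-driven chloride-bicarbonate exchanger gene Slc4a8 had 1.62 and 2.39 FPKM, a log2 ratio of 0.56 and the nearest of the higher members below the threshold. Its second row had a log2 ratio of 0.25, and the log2 ratio of the summed rows was 0.41. Slc4a11 and Slc4a7, of the same bicarbonate transporter family, had log2 ratios of 0.40 and 0.34. Slc7a8, the amino acid exchanger LAT2, had 9.28 and 12.3 FPKM in its row of highest level, but its second row went from 7.07 to 6.26 FPKM and the log2 ratio of the summed rows was 0.18. Slc24a4, a potassium-dependent sodium-calcium exchanger gene, had 3.14 and 4.03 FPKM. Slc32a1, the vesicular GABA transporter, closed the list with 25.4 and 32.0 FPKM, a log2 ratio of 0.33.

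Because corticosterone acts through nuclear receptors that bind DNA, the promoters of these genes were read for one arm of the classical glucocorticoid response element, AGAACA or its complement TGTTCT. The window was the 300 bases from 250 before to 50 after the start site in the RefSeq promoter table (build GRCr8), which holds 150 of the 193 members. The arm was found in 17 of these 150 members (11.3%) and in 21.6% of all symbols in that table. The relaxed palindrome, GNACA and TGTNC separated by 3 bases, was found in 0 of the 150 and in 0.459% of all symbols. Among the 10 members with the highest ratios, 8 have a promoter in the table, and 2 of them, Slc10a6 and Slc32a1, hold the arm. Of the 10 members with the lowest ratios, 4 have a promoter and 0 hold it. The 30 bases around the match are shown for both genes, on the plus strand and with the arm in capitals. They lie at chr14:6385595-6385624 for Slc10a6, with the arm starting at base 34 downstream of the start site, and at chr3:167687048-167687077 for Slc32a1, with the arm starting 185 bases upstream.
Slc10a6: ctttgggttcccgTGTTCTaattcatgagt
Slc32a1: gcttcgcgtagcTGTTCTgacgctgccgtc
These are letter matches in a short window, and binding at them was not measured here.

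The lowest ratios included 3 transporters of organic ions and several carriers known from meninges and choroid plexus. Slc5a7, the high-affinity choline transporter of cholinergic terminals, had 1.10 FPKM after vehicle against 0.353 FPKM after CORT, a log2 ratio of -1.64. Slc22a2, the organic cation transporter OCT2, had 1.29 and 0.425 FPKM, and Slc47a1, the multidrug and toxin extrusion protein MATE1, had 1.38 and 0.470 FPKM. These 3 genes were below 1 FPKM in the CORT group, and with a pseudocount of 1 FPKM their log2 ratios were -0.63, -0.69 and -0.70. Slc22a6, the organic anion transporter OAT1 (chromosome 1, 224824798 to 224833259), had 3.81 and 1.60 FPKM, a log2 ratio of -1.25. Slc6a13, the GABA and taurine transporter GAT2 of meninges (chromosome 4, 153874851 to 153912155), had 7.21 and 3.03 FPKM, also a log2 ratio of -1.25. Slc6a20, a proline and imino acid transporter, was the most abundant member past the threshold, at 12 FPKM with vehicle against 6.22 FPKM after CORT.

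Like Slc5a7, the other 4 genes among the 10 lowest do not belong to these groups. Slc5a11, a sodium-dependent inositol transporter, had 4.66 and 2.00 FPKM, but its second row went the other way and the log2 ratio moved from -1.22 to -0.50 when its rows were summed. Slc11a1, the divalent metal transporter NRAMP1 of phagocytes, had 3.32 and 1.5 FPKM, and each of its 4 rows was lower with CORT. Slc39a8, a transporter of zinc and manganese, had 1.67 and 0.815 FPKM. Slc45a3, first described in prostate as prostein, had 1.84 and 0.956 FPKM. Both were below 1 FPKM in the CORT group, and with a pseudocount of 1 FPKM their log2 ratios were -0.56 and -0.54, short of the threshold. Slc17a6, the vesicular glutamate transporter VGLUT2 that is typical of thalamic neurons, came next with 9.0 and 5.56 FPKM, a log2 ratio of -0.70 (chromosome 1, 106998543 to 107038706). Just short of the threshold on this side were Slc13a3, a dicarboxylate transporter, at a log2 ratio of -0.57, and the orphan monocarboxylate transporter family member Slc16a4 at -0.55.

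**Figure D2:**
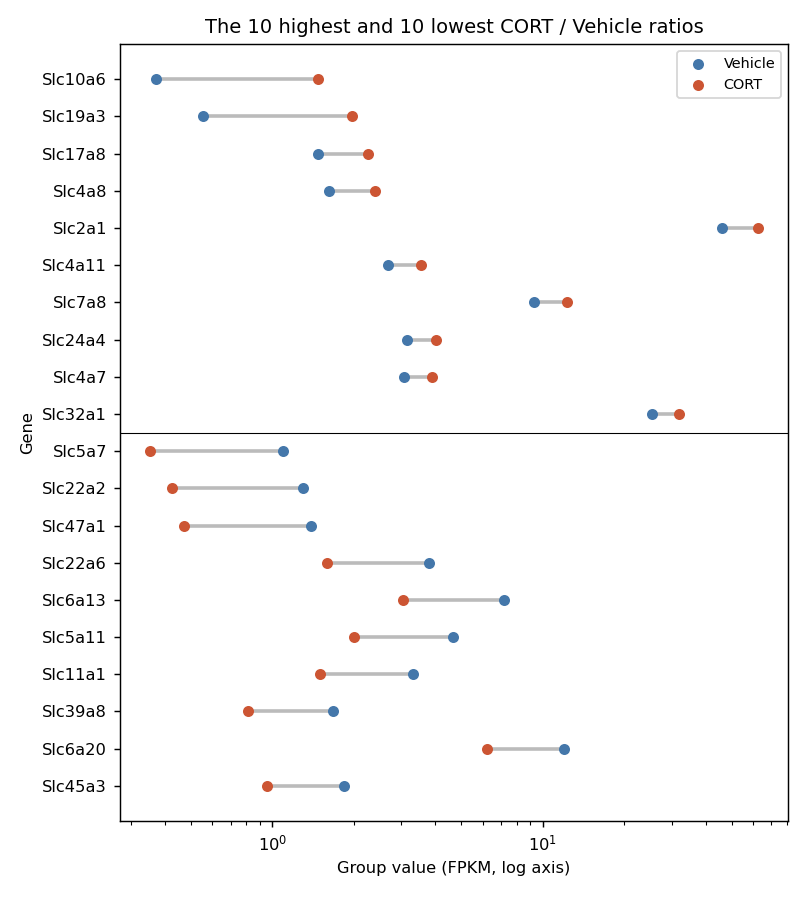
The 10 SLC genes with the highest (top) and the 10 with the lowest (bottom) ratio of CORT to vehicle among the 190 that reached 1 FPKM in either group; each row is 1 gene, with its vehicle value in blue and its CORT value in red, in FPKM on a log axis. Slc2a1, at 46.1 and 62.5 FPKM, lies far to the right of the other genes except Slc32a1, and Slc10a6 and Slc19a3 cross 1 FPKM from left to right.

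Vesicular transporters had no common direction. Of the 8 in the list, 6 have a row, 3 were higher and 3 lower with CORT, and the median log2 ratio was 0.024. The 3 vesicular glutamate transporters split, with Slc17a7 at 0.11, Slc17a6 at -0.70 and Slc17a8 at 0.61. In level they were far apart, with Slc17a6 at 9.0 FPKM and Slc17a8 at 1.47 FPKM in the vehicle group beside the 736 FPKM of Slc17a7. The vesicular monoamine transporters Slc18a1 and Slc18a2 were at 2.29 and 3.80 FPKM with vehicle, and their log2 ratios were -0.062 and -0.18. Slc17a9 and Slc18a3, which load nucleotides and acetylcholine, were not analysed here.

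Uptake transporters at the plasma membrane differed past the threshold only at low or moderate level. The glycine transporter gene Slc6a9 had 27.8 and 24.9 FPKM and the astrocytic GABA transporter gene Slc6a11 had 18.4 and 18.9 FPKM. Slc6a13 and Slc5a7 were past the threshold, and the 5 genes of the list with a row had a median log2 ratio of -0.16. This median was -0.061 with 1 FPKM required in both groups and -0.092 with summed rows. The dopamine, noradrenaline and serotonin transporter genes Slc6a3, Slc6a2 and Slc6a4, and Slc6a5 and Slc6a12, were not analysed here. In the SLC1 family, which takes up glutamate and small neutral amino acids, 4 of 6 genes were higher with CORT and none was past the threshold. The neuronal glutamate transporter gene Slc1a1 had 51.4 and 53.9 FPKM, Slc1a4 had 13.1 and 13.9 FPKM, and Slc1a6 had 1.17 and 1.35 FPKM. Slc1a5, the glutamine carrier ASCT2, was the lowest of the family, at 1.30 and 0.959 FPKM.

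**Figure D3:**
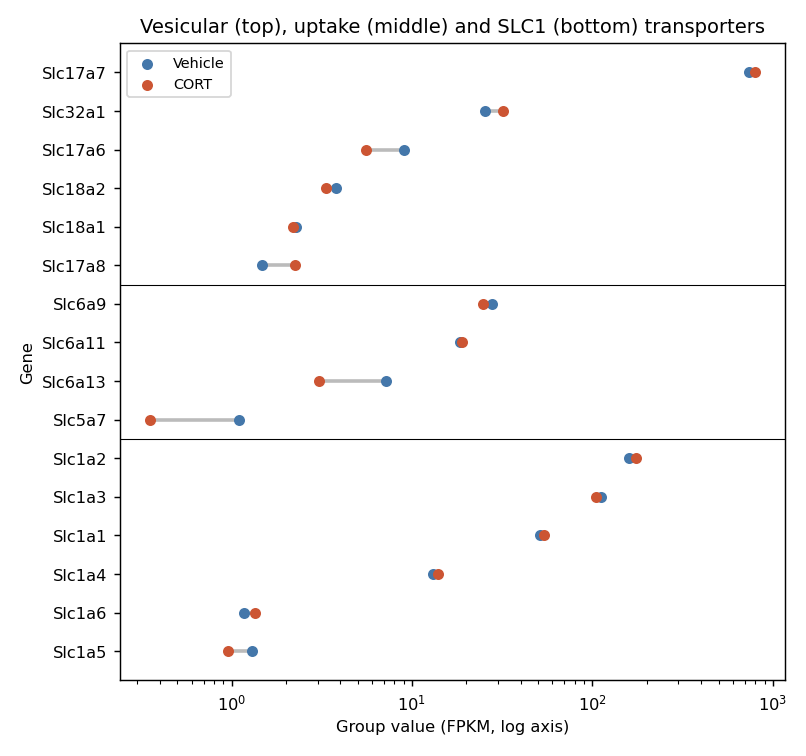
Vehicle (blue) and CORT (red) group values, in FPKM on a log axis, of the vesicular transmitter transporters, the plasma membrane uptake transporters named in the text and the SLC1 family, each block ordered by level. Slc17a6, Slc6a13 and Slc5a7 have their red point clearly left of the blue one, and the genes above 50 FPKM have points that nearly coincide.

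Chloride, proton and calcium transport genes mostly differed little. Among 6 cation-chloride cotransporters, Slc12a5 was higher with CORT at a log2 ratio of 0.27, whereas Slc12a2 (NKCC1), which loads chloride into cells, had 30.7 and 30.4 FPKM. Slc12a4, Slc12a9 and Slc12a7 had log2 ratios of -0.14, -0.11 and -0.32. Of 24 bicarbonate, proton and anion exchangers, 16 were higher and 8 lower, the median log2 ratio was 0.077 and none was past the threshold. All 8 sodium-proton exchangers of the SLC9 family were higher with CORT, by log2 ratios between 0.044 for Slc9a5 and 0.27 for Slc9a2. Of the 7 sodium-calcium exchangers, 5 were higher, including Slc8a2 at 0.23 and Slc24a3 at 0.24. Slc8a3 was at 2.60 and 2.71 FPKM. Slc8a1 was lower in its row of highest level, 9.37 against 7.84 FPKM, but the sum over its 3 rows was 9.83 FPKM with vehicle and 12.5 FPKM with CORT, so its direction depended on which transcripts were counted.

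Fuel and nutrient carriers showed no common direction. In the sugar transporter list, 10 of 15 genes were higher and 5 lower, with a median log2 ratio of 0.028, and Slc5a11 was the gene past the threshold. After Slc2a1, the SLC2 genes ranged from -0.10 for Slc2a10 to 0.17 for Slc2a5, and the neuronal glucose transporter gene Slc2a3 was not analysed here. The monocarboxylate carriers for lactate were lower or level, with Slc16a1 (MCT1) at 24.9 and 19.7 FPKM, Slc16a3 (MCT4) at 1.57 and 1.40 FPKM and Slc16a7 (MCT2) at 2.59 and 2.64 FPKM. Together with the fatty acid transporters, 4 of the 7 genes in that list were higher, and the median log2 ratio was 0.017, or -0.0023 when centred on the median of all symbols. Among 27 amino acid transporters outside the SLC1 family, 13 were higher and 14 lower, and Slc6a20 was the gene past the threshold. The light chain genes Slc7a5 (LAT1) and Slc7a11 (the cystine-glutamate exchanger) had 19.4 and 18.7 FPKM and 16.3 and 13.8 FPKM, and the glutamine transporter gene Slc38a2 had 27.7 and 29.1 FPKM.

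Zinc transporters were divided evenly, with 10 of 20 higher and 10 lower, and Slc39a8 was the gene past the threshold. The zinc exporter gene Slc30a1 was at 11.1 and 10.5 FPKM. Of 7 iron, copper and magnesium transporters, 2 were higher and 5 lower, with Slc11a1 past the threshold, and the iron exporter gene Slc40a1 was not analysed here. Of the 12 carriers of phosphate, sulphate, dicarboxylates and vitamins that reached 1 FPKM, 4 were higher and 8 lower. That list contains Slc19a3, whose relatives Slc19a1 and Slc19a2 had log2 ratios of -0.24 and 0.020. Of 9 nucleoside and nucleotide-sugar transporters, 3 were higher and 6 lower, with a median of -0.078. The organic ion, drug and peptide transporters had a median of -0.17, with 7 of 10 genes lower and Slc22a2, Slc22a6 and Slc47a1 past the threshold. With 1 FPKM required in both groups this median was -0.039 and that of the phosphate, sulphate, dicarboxylate and vitamin carriers was -0.13.

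Family medians stayed close to 0. For the 15 families with at least 5 members that reached 1 FPKM, which hold 123 members, the median log2 ratio lay between -0.12 for SLC22 and 0.13 for SLC4. These ends depended on the filter, since SLC22 was at -0.017 with 1 FPKM required in both groups and SLC4 at -0.017 when either group had to reach 5 FPKM. Single genes of SLC22 ran from -1.60 for Slc22a2 to 0.14 for Slc22a17, in SLC6 from -1.25 for Slc6a13 to 0.24 for Slc6a7, and in SLC10 from -0.47 for Slc10a4 to 1.99 for Slc10a6. SLC7 had 9 of 11 genes lower, with a median of -0.054, and SLC30 had 5 of 8 lower with a range of -0.13 to 0.13. Among the smaller families, all 4 members of SLC5, which use the sodium gradient, were lower with CORT in their rows of highest level. These log2 ratios lay between -1.64 for Slc5a7, below 1 FPKM in the CORT group, and -0.24 for Slc5a5. The second rows of Slc5a6 and Slc5a11 were higher with CORT, and their summed rows had log2 ratios of -0.070 and -0.50.

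**Figure D4:**
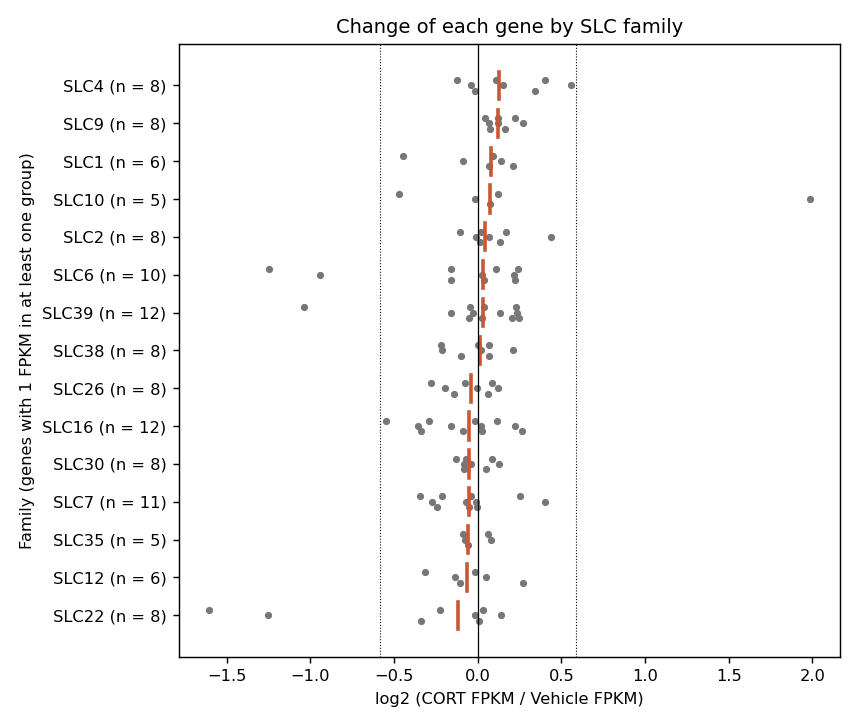
log2 ratio of CORT to vehicle FPKM for each SLC gene (grey points) in the 15 families with at least 5 genes that reached 1 FPKM; red bars are family medians, dotted lines mark 1.5-fold and points are offset vertically only to separate them. The medians lie between -0.12 and 0.13, and the points far outside the dotted lines belong to SLC10, SLC22, SLC6 and SLC39.

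The SLC genes were also grouped by the cell kind in which they are known to be enriched. Of 10 neuron-enriched genes, 9 were higher with CORT, with a median log2 ratio of 0.22, and their summed level was 1226 FPKM with vehicle and 1356 FPKM with CORT. These 9 ran from 0.11 for Slc4a10 to 0.33 for Slc32a1, and included Slc6a17 (64.6 and 75.5 FPKM) and Slc6a7 (18.5 and 21.9 FPKM), and Slc4a10 was at 44.9 and 48.4 FPKM. The exception was Slc17a6. Of the summed level of these 10 genes, Slc17a7 alone held 736 FPKM with vehicle and 794 FPKM with CORT. The FPKM summed over all 13272 symbols was also higher with CORT, at 541355 with vehicle and 576928 with CORT. The 9 astrocyte-enriched genes had a median of -0.040, with 4 higher and 5 lower. Within them, the urea transporter gene Slc14a1 was lowest at 20.6 and 15.0 FPKM, and Slc4a4, Slc6a11, Slc7a10, Slc39a12 and Slc15a2 lay between -0.13 and 0.14. The 7 endothelium-enriched genes had a median of -0.054 and ran from -0.34 for Slc16a1 to the 1.83 of Slc19a3, with Slc7a1 and Slc38a5 both at -0.21. All 8 genes enriched in meninges or choroid plexus were lower with CORT, 4 of them past the threshold, with a median of -0.65 and a summed level of 75 and 55.8 FPKM. Besides Slc47a1, Slc6a13, Slc22a6 and Slc6a20, these were Slc16a8 at -0.35, Slc22a8 at -0.34, Slc13a4 at -0.23 and Slc4a5 at -0.017. The other 6 lower members past the threshold, Slc5a7, Slc22a2, Slc5a11, Slc11a1, Slc39a8 and Slc45a3, were in none of these 4 lists.

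Marker genes other than the 193 members were read beside these groups, among them the organic anion carrier gene Slco1a4 in the endothelial list, at 16.7 and 11.8 FPKM. In bulk tissue, fewer cells of a type, whether of the hippocampus or of tissue beside it, and less RNA per cell cannot be told apart. Hippocampal excitatory neuron markers were abundant in both groups, with Neurod6 at 128 and 119 FPKM and Wfs1 at 106 and 114 FPKM. Of their 8 genes with a row, 6 were higher with CORT (median 0.087), and the sum was 2190 and 2400 FPKM, with Nrgn the most abundant. All 7 GABAergic markers with a row were higher (median 0.27, sum 536 and 660 FPKM, Sst most abundant), beside the 0.33 of Slc32a1. Meningeal fibroblast markers were lower in 9 of 10 genes, 6 of them past the threshold (median -0.81, sum 1701 and 809 FPKM, Ptgds most abundant). Choroid plexus markers were lower in 7 of 11 genes and none was past the threshold (median -0.016, sum 6811 and 6793 FPKM, Ttr most abundant). Beside these medians, the 8 SLC genes enriched in meninges or choroid plexus had log2 ratios from -1.56 for Slc47a1 to -0.017 for Slc4a5. Between them, Slc6a13 and Slc22a6 both had -1.25, Slc6a20 had -0.94, Slc16a8 -0.35, Slc22a8 -0.34 and Slc13a4 -0.23. These genes form a joint list, which does not assign them to one tissue or the other. Thalamic or habenular markers were lower in 8 of the 9 genes that reached 1 FPKM, 6 of them past the threshold (median -1.01, sum 48.5 and 30.8 FPKM over 10 genes, Nwd2 most abundant), beside the lower values of Slc17a6 and Slc5a7. Of the pineal markers, 3 of 8 have a row and all were lower, 2 of them past the threshold (median -3.29, sum 15.5 and 7.33 FPKM, Rom1 most abundant). Tph1, the pineal enzyme for serotonin synthesis, had 5.17 FPKM with vehicle and 0.102 FPKM with CORT, the lowest ratio of all symbols that passed the filter, and Gnat2 had 3.0 and 0.307 FPKM.

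Microglial markers were lower in 7 of 8 genes (median -0.23, sum 252 and 217 FPKM, C1qa most abundant), beside the lower values of Slc11a1, and Tmem119 was the exception at 0.96. Oligodendrocyte markers were lower in 7 of 8 (median -0.23, sum 5574 and 4668 FPKM, Mbp most abundant). Astrocyte markers were lower in 4 of 8 (median -0.030, sum 2837 and 2431 FPKM, S100b most abundant), and 2 of these, Gfap (970 and 517 FPKM) and Aldh1l1 (log2 ratio -0.67), were past the threshold. Endothelial markers were lower in 6 of 7 (median -0.20, sum 136 and 117 FPKM, Cldn5 most abundant), with Kdr past the threshold at -1.01. The 7 endothelium-enriched SLC genes were split, with 3 higher and 4 lower. Their sum was 182 FPKM with vehicle and 196 FPKM with CORT. No marker with a row was at 0 in either group, and neither was any of the 13272 symbols. The paper states that genes whose comparison failed through low expression were removed. The part of these markers' differences in the values of the SLC genes was not tested.

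**Figure D5:**
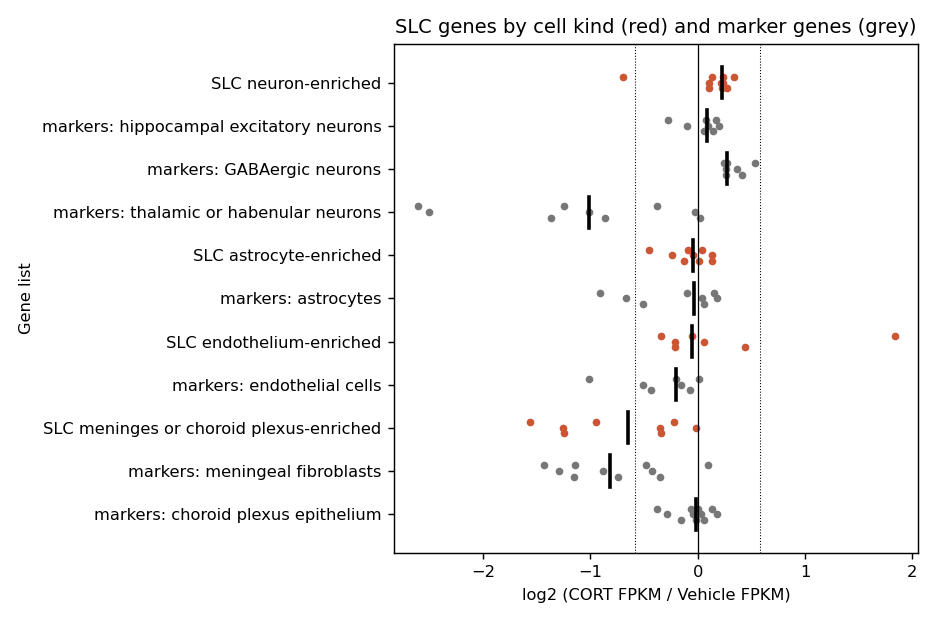
log2 ratio of CORT to vehicle FPKM for SLC genes listed by cell kind (red) and for marker genes other than the 193 members (grey), each point 1 gene that reached 1 FPKM in either group; black bars are list medians and dotted lines mark 1.5-fold. The SLC genes of meninges or choroid plexus (median -0.65) and the meningeal markers (-0.81) lie to the left, whereas the choroid plexus markers (-0.016) are centred near 0.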

How the data were processed

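RNAseq was carried out on 8 whole hippocampi with a stranded total RNA kit. Per the submitters' processing notes, CASAVA 1.8.2, TopHat2 2.0.10 and Cuffdiff 2.2.0 were used with the rn6 genome. The FPKM values were made by the authors with geometric normalization between libraries (at least 10 alignments were needed for their test) and with corrections for multiply mapped reads, sequence bias and effective length, and 1 value per group was deposited. The table's 16266 rows are Ensembl transcripts, of which 241 belong to members. It also holds the authors' own log2 fold change, test statistic, p-value, q-value and significance call, none of which were used. Counting of members and ratios was tested on simulated data. Python 3.11.15, numpy 2.4.6, pandas 2.3.3 and matplotlib 3.10.9 were used.

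With 1 value per group no test between groups could be run, and other pseudocounts, filters, thresholds and choices of row were tried as alternatives. Genes named are the 10 of highest level, the 10 highest and 10 lowest ratios among members with 1 FPKM in at least one group, and fixed lists by role and cell kind, 67 members in all, with Slc13a3, Slc16a4, Slc9a5 and other list extremes or neighbours of the threshold added after their values were seen. Members and lists were chosen with earlier results of these data known. Single values of some members are not reported here, although counts, sums and medians include them. Role lists cover 163 of 193 members. A locus shared with another symbol was found for 12 members. Promoters came from RefSeq (GRCr8), a build other than that of the table.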

Additional observations from a re-analysis of the deposited data

Results flagged for a closer look

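Rows that were not the highest of their symbol did not enter the counts and medians above. Of 48 such rows of 37 members, 4 rows of 3 genes were below 0.5 FPKM in the vehicle group and at 1 FPKM or more in the CORT group, which is 8.33%, against 2.30% of the 2994 such rows of all symbols. The opposite pattern was found in 0 of the 48 and in 45 of the 2994. A row meets this rule only through the group in which it is high. For Slc8a1 the second row had 0.463 FPKM with vehicle and 2.95 FPKM with CORT, and the third had 0.0031 and 1.67 FPKM. The second row of Slc5a11 had 0.0062 and 1.30 FPKM, and that of Slc6a7 had 0.373 and 1.87 FPKM. In 17 of the 37 members with more than 1 row, the second row differed in sign from the first. The differences were not tested, and their cause was not tested.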

How the results depend on the processing

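The counts of 3 higher and 11 lower members past the threshold became 1 and 6 with 1 FPKM required in both groups. Under that filter 0.568% of members were higher and 3.41% lower, against 1.42% and 2.50% of all symbols. The counts became 0 and 3 when either group had to reach 5 FPKM, and 10 and 22 with a lower threshold of 0.32 on the log2 scale. Shares of all symbols under the 5 FPKM filter and the lower threshold are not given here, so these counts cannot be set against them. Without the members listed for meninges or choroid plexus, an alternative chosen after seeing the data, 7 were lower. This count follows directly from the 4 lower members past the threshold in that list. Shares of all symbols are not given for it or for the alternatives that follow. Under the other alternatives run (pseudocounts of 1 and 0.1 FPKM, no filter, summed rows, the row of highest vehicle value, centring on the median, a 2-fold threshold, Slc25 included) the higher members numbered 2 or 3 and the lower ones 8 to 12. The median over members lay between -0.022 and 0.028.

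Of the list and family medians, few moved by 0.1 or more. With 1 FPKM in both groups, the organic ion, drug and peptide list had -0.039 in place of -0.17 and SLC22 had -0.017 in place of -0.12. With 5 FPKM, that list had -0.024, while SLC4 turned from 0.13 to -0.017 and SLC16 from -0.051 to 0.12. With summed rows, the sodium-calcium exchangers had 0.23 in place of 0.079, and SLC35 turned from -0.056 to 0.059. Both filters keep fewer genes; the cause of the other changes was not tested. Of the 67 named members, 15 moved by 0.1 or more with a pseudocount of 1 FPKM, 5 with 0.1 FPKM, 6 with summed rows and 1 with the row of highest vehicle value, and none past the threshold changed sign.

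No paired analysis was possible because the table carries no values for single rats, and leaving out each rat in turn was not run for lack of them. The table holds neither counts nor depth, which limits what can be said of genes near 1 FPKM.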
